A study of Mus musculus with 2 samples.

Results

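The 36 genes described here carry glucose through glycolysis: its transporters, the enzymes of each step down to lactate and the lactate exporters. Among them are also the kinases that switch off pyruvate dehydrogenase and 3 enzymes of glycogen and glucose synthesis. The genes were found by symbol in the platform's probe annotation. Where a gene had several probes, the one with the highest mean spot signal over both arrays was used. Of the 36, 35 had a probe and all 35 were above background on both arrays, out of 16444 named genes measured, of which 13753 passed the same limit. Below, shares, medians, quartiles and ranks of all named genes are over these 13753. For the authors' deposited table they are over the 14203 named genes with values on both arrays. Fbp1, the gluconeogenic fructose bisphosphatase, was not matched to a probe and is not described further.

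Total RNA of Flk-1-positive early mesodermal cells was measured, with 1 array for each of 2 groups. The gene-trapped sample came from mouse embryonic stem cells in which an inserted cassette disrupts AU019823 on both alleles, and the revertant sample from cells whose genotype the labels call almost that of the wild type. Both samples, labelled day 4.5, had been cocultured with OP9, a stromal line that supports blood formation, and collected by sorting on Flk-1, the product of Kdr. RNA was taken from 350000 revertant and 300000 gene-trapped cells. Different codes are given for the samples and not explained. Should they name clones, effects of the clone and of the genotype cannot be told apart. In bulk RNA, fewer cells of a type and less RNA per cell cannot be told apart.

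There was no replicate, so no test could be made. Each difference compares these 2 arrays, carries no standard error, and is read against a fixed size of at least 2-fold. With so few arrays, the precision of any value is limited. Control spots printed 24 times had an SD of the log2 difference between arrays of up to 0.107, which is the spread between spots and not between cultures. The probe for AU019823 read 486 in revertant cells and 297 in gene-trapped cells, giving a log2 difference of -0.39, and its place relative to the trap is unknown, so it does not check the labels. All 11 markers of Flk-1-positive mesoderm were above background on both arrays, with Kdr at 1025 and 537 (log2 difference -0.65). With the scanner's local background subtracted Kdr had -2.04. These markers differed in both directions, with a median log2 difference of 0.16. Mixl1 (1.99) and Etv2 (1.31) were at least 2-fold higher in gene-trapped cells, and Flt1 (-1.53) was at least 2-fold lower. Short of 2-fold, T had 0.76, Mesp1 0.51, Tbx6 0.20 and Lmo2 0.16, while Tal1 had -0.69, Hand1 -0.44 and Pdgfra -0.02. The part of the mesoderm cells' makeup in the results below was not tested. The summed raw signal of 12 stromal and fibroblast markers over the blank level was 4716 in revertant cells and 1658 in gene-trapped cells. Most of this sum came from Acta2, which alone read 3603 and 1195. Of these 12, 2 were at least 2-fold lower (Col1a1 and Acta2) and Dcn was at background on both arrays. The 10 above background on both arrays had a median log2 difference of -0.34, and of these only Lum (0.06) and Thy1 (0.02) lay above 0. The part of stromal cells was not tested either.

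Glycolysis splits glucose into pyruvate in the cytosol, and lactate dehydrogenase can then turn pyruvate into lactate, which restores the cofactor the pathway needs. Its early steps spend ATP to prime the sugar, and its later steps, the payoff phase, return ATP. Most steps are served by several isozymes from separate genes with tissue preferences, and many of these genes are known targets of the hypoxia-inducible factor HIF. Pluripotent and early embryonic cells are known for high glycolytic flux.

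Glycolysis genes were lower on the gene-trapped array at most steps from glucose entry to lactate export, with the largest differences at the transporter gene Slc2a3 and the phosphofructokinase gene Pfkp. Of the 35 genes, 13 (37.1%) were at least 2-fold lower, where 1.08% of all named genes were. Members at least 2-fold higher numbered 0, where 0.334% of all named genes were. The 13 were Slc2a1, Slc2a3, Gpi1, Pfkl, Pfkp, Aldoc, Tpi1, Gapdh, Pgk1, Pdk1, Slc16a3, Gys1 and Pgm2. The median log2 difference over the 35 was -0.46, against 0.01 over all named genes, and 32 of the 35 lay below 0, against 46.6% of all named genes. Scaling to the 75th percentile puts the median of all named genes at 0.15. It left 25 of the 35 below 0, against 27% of all named genes, and 13 of the 35 at least 2-fold lower, against 1.03%. Of the 35 genes, 16 were at least 2-fold lower in the authors' deposited table, against 4.02% of all named genes, and 0 were at least 2-fold higher, against 2.01%. With the scanner's local background subtracted the members numbered 10 lower, where 1.35% of all named genes were, and 2 higher, where 2.04% were, and their median was -0.16. Among the 50 named genes with the lowest differences, 7 belonged to the pathway, and among the lowest 150, 13 did.

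**Figure D1:**
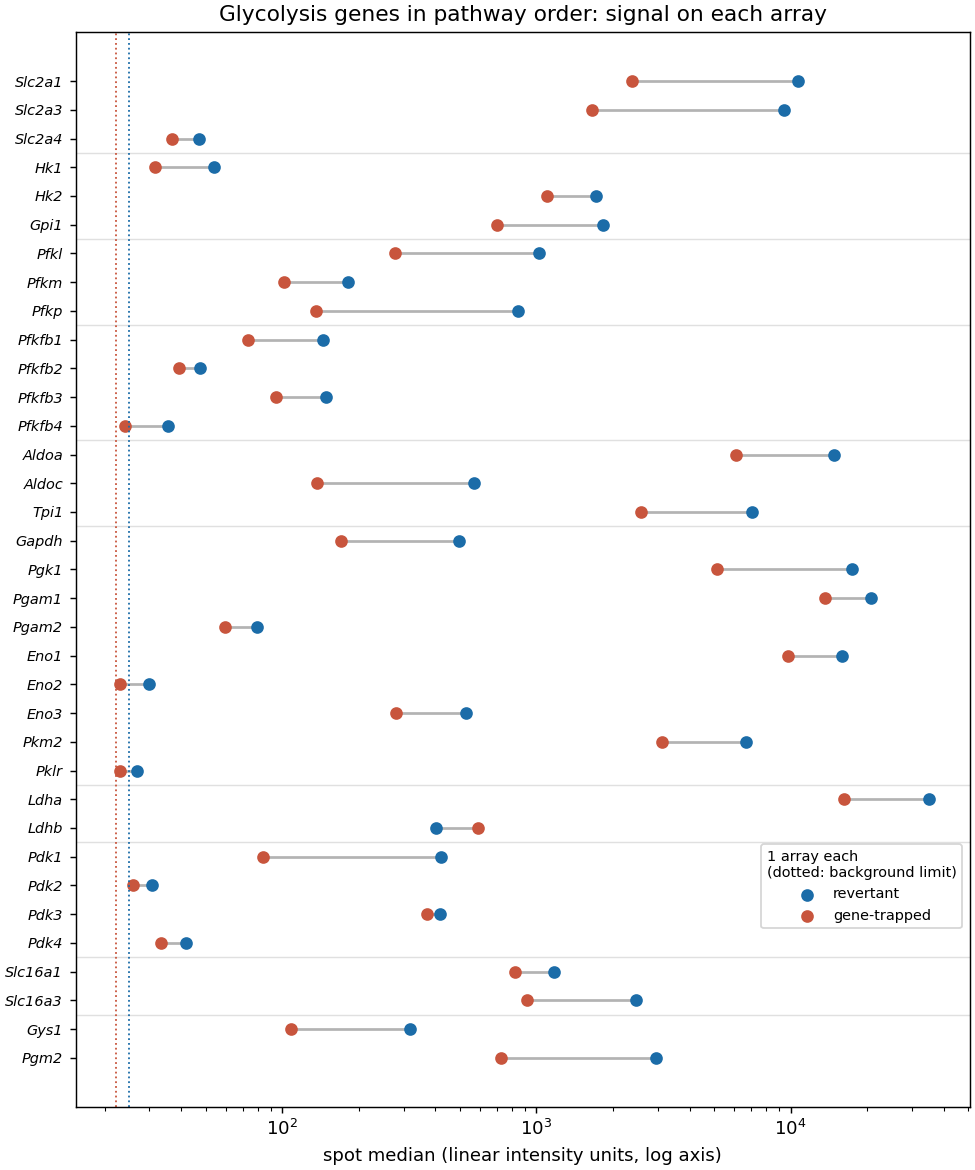
Signal of 35 glycolysis genes in pathway order, as spot median in linear intensity units on a log axis, for the revertant array (blue) and the gene-trapped array (red), 1 array each. Dotted lines mark the background limits of 24.99 and 22.3, and the gene-trapped point lies right of the revertant point for Ldhb only. Before normalization the gene-trapped array is dimmer as a whole, with a median probe signal of 38.6 against 47.5.

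Brightness bears on such counts, because an offset of 50 was added before the logarithm and makes the differences of dim genes small. Of the 35 genes, 21 lay in the brightest quartile of all named genes, and 11 of these 21 were at least 2-fold lower, where 2.62% of all genes of that quartile were. In the third quartile the count was 2 of 5, where 1.6% of its genes were at least 2-fold lower. The 5 members in the second quartile and the 4 in the dimmest included none, where 0.0873% and 0% of the genes of these quartiles passed the size. For these 9 the array therefore gives little information in either direction.

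**Figure D2:**
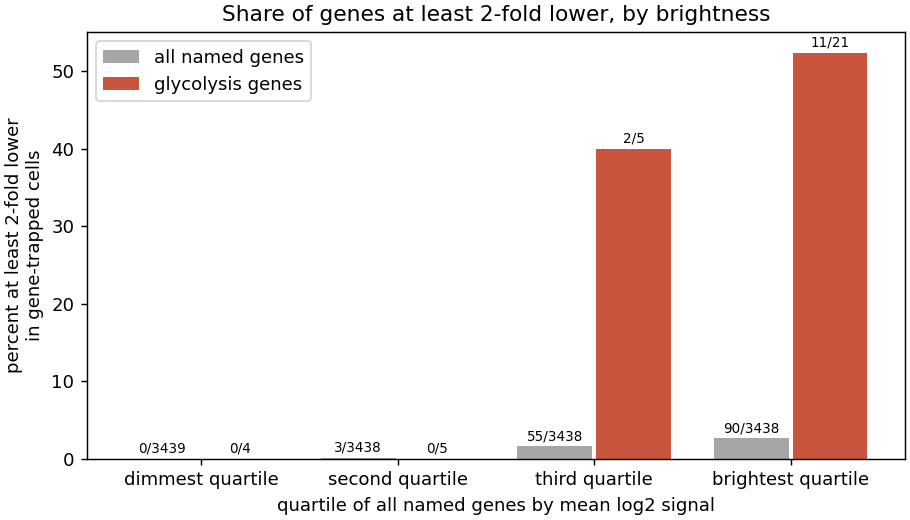
Percent of genes lower by at least 2-fold in gene-trapped cells, by quartile of all named genes ordered by mean log2 signal, for all named genes (grey) and the glycolysis genes (red), with the counts above each bar. In the brightest quartile the bars stand for 90 of 3438 genes and 11 of 21 glycolysis genes.

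Glucose enters through facilitative transporters. Slc2a3, which encodes the high-affinity transporter GLUT3, read 9453 in revertant cells and 1659 in gene-trapped cells. After normalization the log2 difference was -2.18 (4.53-fold lower), the lowest of the 35 and the 6th lowest of all named genes. Slc2a1, which encodes the widely expressed transporter GLUT1, read 10678 and 2383, a log2 difference of -1.78 (3.44-fold lower). Slc2a4, the insulin-responsive transporter gene of muscle and fat, was dim, at 46.95 and 36.84, and its log2 difference was -0.03. The ubiquitous and the high-affinity transporter genes were thus lower, and the muscle and fat gene had nearly equal values.

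Hexokinase traps glucose in the cell as glucose phosphate. Hk2, the inducible isozyme, read 1707 and 1095, a log2 difference of -0.38 (1.30-fold lower), which turned to 0.04 with the local background subtracted. Hk1, the constitutive isozyme, was dim on these arrays, at 53.6 and 31.7, and had a log2 difference of -0.27. Neither hexokinase gene reached 2-fold, although in the authors' deposited table Hk1 was 2.07-fold lower. Gpi1, the isomerase that follows, read 1828 and 698, a log2 difference of -1.11 (2.16-fold lower). In that same setting Gpi1 had 0.14.

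Phosphofructokinase commits the sugar to glycolysis and is a main point of control. Its platelet-type isozyme gene Pfkp had signals of 848 in revertant cells and 136 in gene-trapped cells. That is a log2 difference of -2.13 (4.39-fold lower), the 8th lowest of all named genes. The liver-type gene Pfkl had 1021 and 279, a log2 difference of -1.49 (2.82-fold lower). The muscle-type gene Pfkm had 182 and 101, a log2 difference of -0.38. Of the phosphofructokinase genes, 2 of 3 were thus at least 2-fold lower, and all 3 lay below 0.

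The Pfkfb genes encode bifunctional enzymes that make and break down the fructose bisphosphate that activates phosphofructokinase. None of the 4 reached 2-fold. Pfkfb1 read 144 and 73.5 (log2 difference -0.46), Pfkfb3, the isozyme that mainly makes it, 149 and 94.8 (-0.21), and Pfkfb2, the heart-type isozyme, 47.4 and 39.3 (0.01). Pfkfb4 read 35.5 in revertant cells and 24.1 in gene-trapped cells, close to the limit of 22.3 there, with a log2 difference of -0.16. In the authors' deposited table Pfkfb4 was 2.51-fold lower, and its signal near background leaves the size of that fold uncertain.

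Aldolase splits the primed sugar into a pair of triose phosphates, which triose phosphate isomerase interconverts. Aldoc, the brain-type aldolase gene, read 569 and 137, a log2 difference of -1.56 (2.94-fold lower). Aldoa, the ubiquitous aldolase gene, read 14841 and 6120, a log2 difference of -0.86 (1.81-fold lower). A less bright second Aldoa probe, the only second probe among the members, read 3176 and 1027 and gave -1.33. Both Aldoa probes were thus lower, with the threshold between them, and under median scaling the brighter probe had -1.14. Tpi1, the isomerase gene, read 7061 and 2588, a log2 difference of -1.08 (2.12-fold lower).

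The payoff phase divided by step. Gapdh, which oxidises the triose phosphate, read 497 in revertant cells and 170 in gene-trapped cells, giving a log2 difference of -1.10 (2.14-fold lower), and -0.59 with the local background subtracted. Pgk1, the kinase of the first ATP-yielding step, read 17396 and 5152, a log2 difference of -1.32 (2.50-fold lower). Both genes often serve as references of constant expression, and in the main setting they were among the lower genes on these arrays. Each rests on 1 probe, and that of Gapdh was far dimmer than that of Pgk1. The next enzymes of the pathway showed smaller differences. Pgam1, the phosphoglycerate mutase gene, had signals of 20754 and 13594, a log2 difference of -0.20, and Eno1, the ubiquitous enolase gene, 15917 and 9782, a log2 difference of -0.26.

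Muscle-type enolase gene Eno3 read 527 and 281, a log2 difference of -0.56 (1.48-fold lower). Pkm2, the symbol the annotation gives for the pyruvate kinase gene now named Pkm, read 6663 and 3124, a log2 difference of -0.75 (1.68-fold lower), and -0.09 with the local background subtracted. The probe's position on the gene is not given in the sources used here, so splice forms of Pkm cannot be told apart. The remaining isozyme genes of this phase were dim. Muscle-type mutase gene Pgam2 read 79.5 and 59.3 (log2 difference -0.05), neuronal enolase gene Eno2 29.98 and 22.9 (-0.08), and liver-type pyruvate kinase gene Pklr 26.9 and 22.9 (-0.02). Eno2 and Pklr lay just above the background limits, so little can be read from their differences or from the 2.05-fold lower value of Eno2 in the authors' deposited table. In all, 2 of the 9 payoff genes were at least 2-fold lower and all 9 lay below 0, of which Pgam2, Eno2 and Pklr turned above 0 under 75th percentile scaling, Eno2 and Pklr also under median scaling and Pklr with the local background subtracted, where Pgam1 was at 0.

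The lactate dehydrogenase genes differed in opposite directions. Ldha, whose subunit favours pyruvate to lactate, read 34997 in revertant cells and 16149 in gene-trapped cells, giving a log2 difference of -0.72 (1.64-fold lower). Ldhb, whose subunit favours the reverse reaction, read 402 and 588, a log2 difference of 0.77 (1.70-fold higher), the highest of the 35. It was the only member with a higher raw signal on the gene-trapped array. Neither gene reached 2-fold in the main setting, and Ldha had -1.53 with the local background subtracted. In the authors' deposited table Ldha was 1.67-fold lower, while Ldhb had values of 249.5 and 484.5. Of the 11 alternative settings, Ldhb stayed above 0 and Ldha below 0 in all. Settings that only change the background filter or average a gene's probes could not move either gene.

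**Figure D3:**
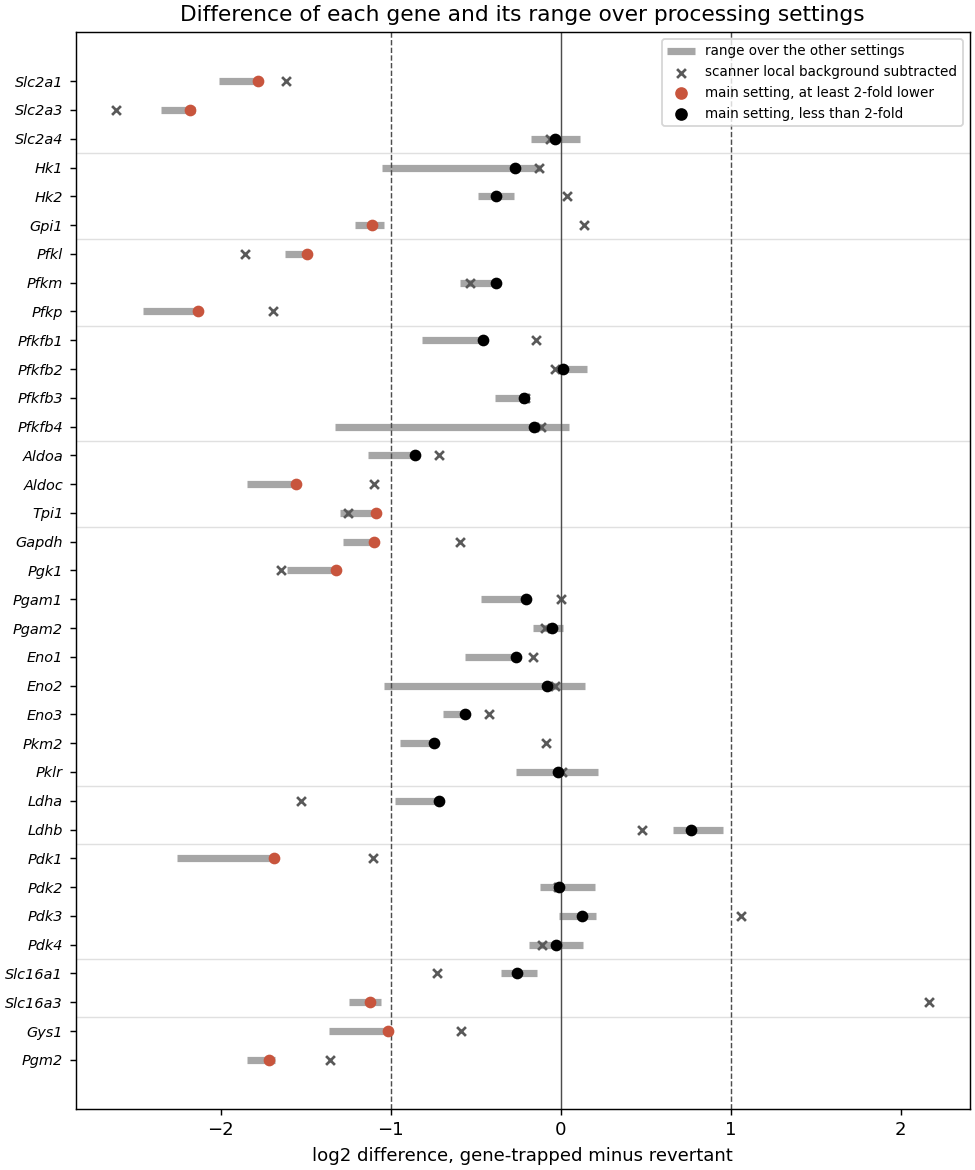
Log2 difference, gene-trapped minus revertant, of 35 glycolysis genes in pathway order. Dots are the main setting (red at least 2-fold lower), grey bars the range over the main and all alternative settings except the scanner's local background subtracted, which is shown by crosses. Dashed lines mark 2-fold. Dots run from -2.18 (Slc2a3) to 0.77 (Ldhb), and for Slc16a3 the cross lies at 2.17 while the dot lies at -1.12.

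Pyruvate dehydrogenase kinases switch off the complex that takes pyruvate into the mitochondrial cycle. Pdk1 read 421 in revertant cells and 84.3 in gene-trapped cells, giving a log2 difference of -1.68 (3.21-fold lower), and it was the only kinase gene of the 4 to reach 2-fold. Pdk3 had similar signals on both arrays, 416 and 371, with a log2 difference of 0.13, which was 1.06 with the local background subtracted. Pdk2, at 30.7 and 25.9, and Pdk4, the isozyme induced by fasting, at 41.99 and 33.3, were dim and had log2 differences of -0.01 and -0.02. The genes of the dehydrogenase complex and of the phosphatases that reactivate it lay on both sides of 0. Of 7 such genes above background, 0 were at least 2-fold apart and 4 lay above 0, from -0.02 to 0.52 (Pdhx, the subunit that binds the dehydrogenase component Dld).

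Lactate leaves through monocarboxylate transporters. Slc16a3, which encodes the export-type transporter MCT4, read 2460 and 921, a log2 difference of -1.12 (2.18-fold lower). Slc16a1, which encodes the widely expressed MCT1, read 1176 and 827, a log2 difference of -0.25. Their shared chaperone gene Bsg, outside the 36 genes, read 2203 and 808, a log2 difference of -1.17, which turned to 0.71 with the local background subtracted. At the Slc16a3 spot on the revertant array, the scanner's local background of 2574 exceeded the spot signal, and with that column subtracted the difference was 2.17. The direction for Slc16a3 is therefore that of the spot signal alone.

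The remaining members sit at the link to glycogen. Pgm2, a phosphoglucomutase gene, read 2962 and 726, a log2 difference of -1.72 (3.29-fold lower). The RefSeq gene table lists Pgm1 and Pgm2 as synonyms of each other, so which phosphoglucomutase this probe measures is not settled. Gys1, the muscle-type glycogen synthase gene, read 317 and 108, a log2 difference of -1.02 (2.03-fold lower), the closest to the threshold among the 13, and -0.59 with the local background subtracted. The nearest member short of it was Aldoa at -0.86.

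Other genes of glucose metabolism came from a list of 72. Of the 58 that were above background, the median log2 difference was -0.0029. At least 2-fold lower were 3 (5.17%), where 1.08% of all named genes were, and 0 were at least 2-fold higher, where 0.334% were. With the local background subtracted, 2 were lower, where 1.35% of all named genes were, and 1 (Galt, 1.24) was higher, where 2.04% were. These genes were dimmer than the members, with 17 of the 58 in the brightest quartile against 21 of 35. Within that quartile 3 of the 17 were at least 2-fold lower, with a median of -0.02, beside 11 of 21 members with a median of -1.08. Of all named genes in that quartile, 2.62% were at least 2-fold lower. Pck2, which makes phosphoenolpyruvate in mitochondria, read 758.5 and 133, a log2 difference of -2.0, and Galk1, the galactokinase gene, 1368 and 510, a log2 difference of -1.12. Bsg, given above, was the third, and its direction depends on the local background. Next by size were Slc2a6, a glucose transporter gene (-0.96), Slc37a4, the glucose phosphate transporter of the endoplasmic reticulum (-0.91), Pygl, liver-type glycogen phosphorylase (-0.75), Pgm3, an enzyme of amino sugar synthesis (-0.70), Slc2a8 (-0.69) and Pygb, brain-type phosphorylase (-0.43). Higher values belonged to Gpd1, glycerol phosphate dehydrogenase (0.61), and Pdhx (0.52). With the local background subtracted Gpd1 had -0.0045, Pygb turned to 0.30, and Slc37a4, Slc2a6, Pygl and Slc2a8 lay between -0.46 and -0.11. The 10 genes of glycogen turnover and phosphoglucose metabolism had a median of -0.17 with 9 below 0. The 9 other glycolytic isozymes and regulators above background had a median of 0.06, between -0.02 and 0.21, but 7 of these 9 lay in the dimmest and second quartiles, where the array gives little information. The transcription factor genes on this list, named here as a group after their values were seen, had log2 differences of -0.10 (Hif1a), -0.26 (Epas1) and 0.38 (Myc). With the local background subtracted Hif1a had -0.49, Epas1 -0.21 and Myc 0.26.

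**Figure D4:**
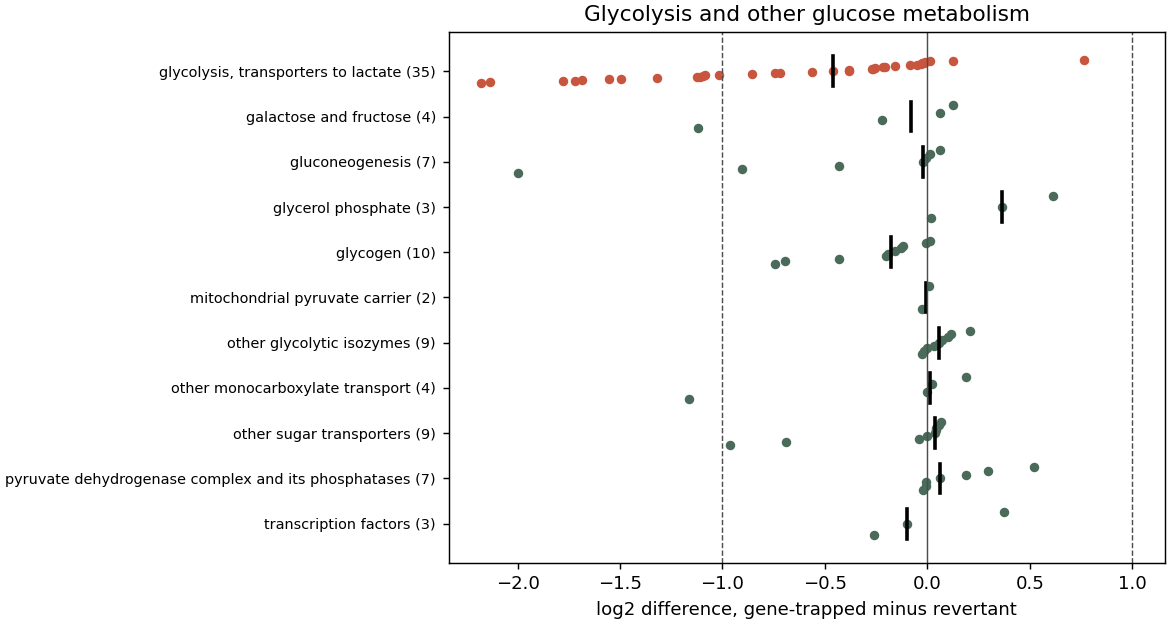
Log2 difference, gene-trapped minus revertant, of the 35 glycolysis genes (red) and of other genes of glucose metabolism by class (green), with the number of genes above background in parentheses and a black bar at each median. Dashed lines mark 2-fold. The glycolysis genes have a median of -0.46 and 13 lie at or beyond 2-fold lower, against 3 of the 58 others. Of all named genes, 1.08% lie there.

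Because many of these genes are known HIF targets, their promoters were searched for the core of the hypoxia response element. RefSeq promoters (GRCm38.p6) were matched by symbol for 32 of the 35 genes, 11 of them among the 13 lower genes. Slc2a3 and Slc2a4 had no entry, and Pgm2 was left out because of its uncertain name. The core was searched as ACGTG or GCGTG on both strands in the 250 bases before each start. CACGTG, the E-box, holds the core ACGTG on each strand and is counted within it. Stretches of 160 bases ending at the base before the start are shown for 6 members of the steps described above, all below 0, and for Ldhb, the member with the highest difference. These genes were picked by name, and each holds a match, so the stretches do not show how common the core is. Ldha is not among the 13 lower genes. The lower genes Gpi1, Tpi1 and Gys1 held no match in the 250 bases and are not shown. Where a gene has several starts in the table, the one with most matches is shown. Each is written 5′ to 3′ on the gene's strand, with core matches in capitals.
Slc2a1, chr4:119108585-119108744, + strand: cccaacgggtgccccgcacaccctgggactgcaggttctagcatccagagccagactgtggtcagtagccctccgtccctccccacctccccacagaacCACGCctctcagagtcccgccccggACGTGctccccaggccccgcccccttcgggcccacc
Pfkp, chr13:6648772-6648931, - strand: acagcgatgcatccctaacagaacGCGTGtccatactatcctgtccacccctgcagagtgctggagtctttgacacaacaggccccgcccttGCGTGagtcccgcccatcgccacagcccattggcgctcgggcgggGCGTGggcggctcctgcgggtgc
Pgk1, chrX:106186940-106187099, + strand: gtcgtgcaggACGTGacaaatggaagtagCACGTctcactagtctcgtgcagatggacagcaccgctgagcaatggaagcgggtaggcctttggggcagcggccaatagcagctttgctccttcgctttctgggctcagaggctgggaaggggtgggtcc
Ldha, chr7:46845644-46845803, + strand: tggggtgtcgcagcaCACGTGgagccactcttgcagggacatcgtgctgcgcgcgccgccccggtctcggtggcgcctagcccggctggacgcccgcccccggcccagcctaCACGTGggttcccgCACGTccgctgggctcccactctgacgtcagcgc
Pdk1, chr2:71873064-71873223, + strand: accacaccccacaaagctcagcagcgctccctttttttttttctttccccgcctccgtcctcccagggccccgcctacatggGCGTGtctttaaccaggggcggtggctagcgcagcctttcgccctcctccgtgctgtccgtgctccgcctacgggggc
Slc16a3, chr11:120948907-120949066, + strand: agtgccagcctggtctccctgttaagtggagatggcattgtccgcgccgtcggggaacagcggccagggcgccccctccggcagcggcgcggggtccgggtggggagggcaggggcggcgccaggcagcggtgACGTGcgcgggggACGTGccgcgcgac
Ldhb, chr6:142507958-142508117, - strand: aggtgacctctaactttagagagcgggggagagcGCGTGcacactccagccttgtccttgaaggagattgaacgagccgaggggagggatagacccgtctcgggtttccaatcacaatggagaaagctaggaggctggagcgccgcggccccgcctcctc

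In the printed stretches, Ldha held 5 matches to ACGTG, counting both strands of its 2 E-boxes, Pfkp 3 to GCGTG, and Pgk1 and Slc16a3 2 each to ACGTG. Slc2a1 held 1 of each form, and Pdk1 and Ldhb 1 each of GCGTG. Over all 52 promoters of the matched members, 36 (69.2%) held the core in the 250 bases searched, compared with 38.6% of the 32851 promoters of the table. Base composition differed as well: the median GC content was 58.8% for member promoters and 52.4% for all, and among promoters within the middle range of the members' GC content 49% held the core. Counted by gene, with any start of a gene sufficing, the core stood before 26 of the 32 matched members (81.2%) and before 41.5% of all 27025 genes. Members had more starts per gene in which a match can fall, with 52 promoters for 32 members against 32851 for 27025 genes. The median GC content by gene, taking the highest start, was 62.6% for these members and 52.8% for all genes. By gene, no share was computed at matched GC content or number of starts. Within the pathway the core stood before 8 of the 11 lower genes (72.7%) and before 18 of the 21 others (85.7%), Ldhb among them. A match describes these letters only and is not a measured binding site.

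**Figure D5:**
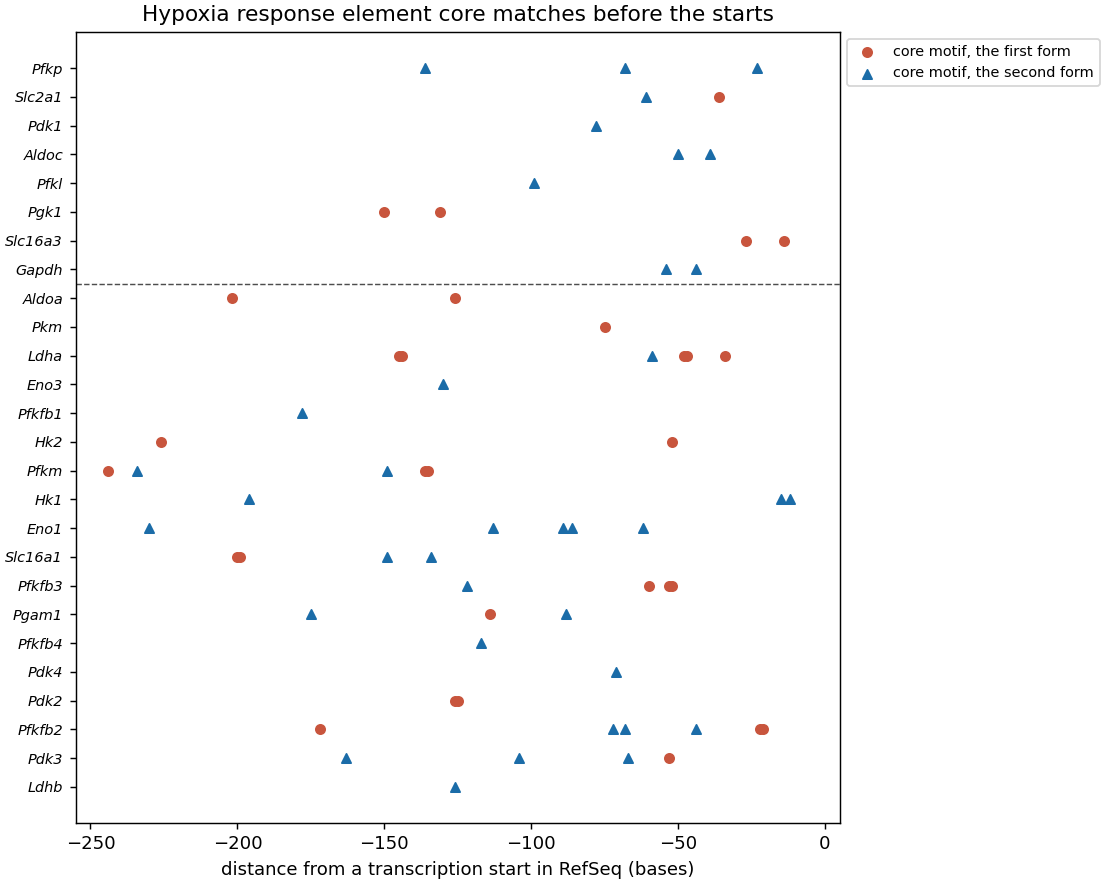
Position of hypoxia response element core matches in the 250 bases before RefSeq starts, with distance from the start in bases, for the 26 matched members that hold any (all starts of a gene on 1 line). Circles are the core in the form ACGTG and triangles in the form GCGTG. Genes run from the lowest difference at the top to the highest at the bottom, and the dashed line separates the 8 genes at least 2-fold lower from the 18 others.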

How the data were processed

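The members and gene lists were chosen with earlier results of these data known. Per the file headers, the deposited scanner values are linear spot intensity medians, read at 3 gains and joined by least squares, without background subtraction. Per the labels' protocols, RNA was amplified, labelled with Cy5 and measured on TORAY arrays. The authors' deposited value table is also linear intensity. Set against the scanner values it is the signal less 22.4 (revertant) or 20.1 (gene-trapped), divided by 1 constant per array, with a median of 25 in each column. The reason for its empty cells is not stated. The genome build is not given in the sources used here.

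Intensities were corrected with normexp (offset 50, all spots) in limma 3.58.1 under R 4.3.3, control and flagged spots were removed, and values were quantile-normalized and put on the log2 scale. Folds are those of normalized signals. A probe was above background when it exceeded the mean of blank spots by more than 2 SD (24.99 on the revertant, 22.3 on the gene-trapped array). Of 23471 probes, 16629 have 1 symbol and 6842 have none. Symbols were matched directly or through RefSeq synonyms (GRCm38.p6). Probe sequences were not used here, so cross-hybridisation with isozymes or pseudogenes was not tested. All members were named. Of the other glucose metabolism list, genes at least 2-fold apart and the next 8 by size were named, besides a group of transcription factors. Markers of pluripotent, endoderm and macrophage cells numbered 5, 5 and 6 with a probe, of which 5, 3 and 2 were above background on both arrays. The median log2 differences of those above background were 0.07, 0.10 and -0.09. Among them only the pluripotent marker Dppa5 was at least 2-fold apart (1.21), and it had -0.08 with the local background subtracted. The steps were tested on simulated data. Tables were made with Python 3.11.15, numpy 2.4.6, pandas 2.3.3 and matplotlib 3.10.9.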

Additional observations from a re-analysis of the deposited data

Results flagged for a closer look

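Signal far above that at blank spots was present in the local background readings, which the main setting leaves out. At the spots of the 35 glycolysis genes the median reading was 352.5 for revertant and 93.82 for gene-trapped cells. Blank spots had medians of 14.2 and 15.6. For 2 members, Slc16a3 and Pdk3, the reading exceeded the spot signal itself on the revertant array, and these are the members that its subtraction puts at least 2-fold higher.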

How the results depend on the processing

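Of 11 alternative settings, 1 (array block medians subtracted) was chosen after the data were seen. No paired analysis was possible because no group holds a replicate. The 13 lower genes all stayed at least 2-fold lower in 10 settings and 9 of them in all 11, namely Slc2a1, Slc2a3, Pfkl, Pfkp, Aldoc, Tpi1, Pgk1, Pdk1 and Pgm2. Settings that only change the background filter or average a gene's probes could not move these 13. All of them pass the stricter filter and none has a second probe, so their agreement there was fixed in advance. With the local background subtracted, 10 members were lower and 2 higher (Pdk3 at 1.06 and Slc16a3 at 2.17), Gpi1 turned to 0.14 and Hk2 to 0.04, Pkm2 came to -0.09, and Gapdh (-0.59) and Gys1 (-0.59) missed 2-fold while Ldha (-1.53) passed it. The authors' table added Hk1, Pfkfb4 and Eno2 (16 lower, where 4.02% of its genes were). Median scaling and the mean of probes added Aldoa (14 lower in each, where 1.48% and 1.07% of all named genes were). The member median was -0.59 under median scaling, -0.61 with offset 16, -0.60 with uncorrected signals, -0.16 after subtracting the local background, -0.81 in the authors' table and -0.64 with the stricter filter, which drops Pfkfb4, Eno2 and Pklr. Of the other glucose genes, 5 (8.62%) were lower under median scaling, 6 (10.3%) with offset 16, 5 (8.62%) without background correction and 7 (12.1%) in the authors' table. Of all named genes, 1.48%, 1.73%, 1.65% and 4.02% were lower in these settings. With the local background subtracted 2 (3.45%) of the other glucose genes were lower, where 1.35% of all named genes were. That subtraction put Galt higher (1.24) and turned Bsg (0.71), Pygb (0.30) and Gpd1 (-0.0045). Under 75th percentile scaling the median of all genes was 0.15, and 25 of 35 members lay below 0, against 27% of all named genes. Over all named genes, 148 were lower and 46 higher in the main setting, 238 and 87 with offset 16, 227 and 84 with no correction at all, 185 and 280 with the local background subtracted, and 571 and 285 in the authors' table. A smaller offset widens folds of dim genes by construction, and otherwise the cause was not tested. The dim isozymes are limited by their low signal over background.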
